A study of Mus musculus with 583 samples.

Results

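The genes described here act in mitosis or in the G2 phase that leads into it. A set of 52 was listed by symbol as genes of mitosis and G2/M, matched by Ensembl identifier to GENCODE M21, and found whole among the 38924 mouse genes of the count table. The cells were J1, an established mouse embryonic stem cell line, grown in 2i/LIF, a medium that keeps them in naive pluripotency. All cells were of that line, the labels name no treatment, and the groups are the methods by which libraries were made: Drop-seq, SCRB-seq, MARS-seq, CEL-seq2, Smart-seq2 and Smart-seq / C1, each with replicate libraries A and B of 29 to 80 cells. Smart-seq / C1 and Smart-seq2 sample reads along the whole transcript, whereas the other methods count unique molecular identifiers (UMIs) at the 3′ end and are called tag methods here. Amplification is by in vitro transcription in MARS-seq and CEL-seq2 and by PCR elsewhere. The labels do not say that replicates came from separate cultures. The p-values here rest on the spread between replicate libraries within methods, and that spread may be technical. They do not measure how far methods of the same class differ, so they hold for the methods used and not for a class in general.

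Dividing cells transcribe the mitotic programme as they leave S phase, translate it in G2, and destroy much of the protein at the end of mitosis through the anaphase-promoting complex. The promoters of these genes commonly carry CCAAT boxes, bound by the factor NF-Y, and a cell cycle genes homology region (CHR), to which the MuvB complexes dock with B-MYB or FOXM1 to activate and with DREAM proteins to repress. Embryonic stem cells pass through a short G1, so that most of the population is in S, G2 or mitosis at any moment.

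RefSeq promoters (GRCm38.p6, from 250 bases before to 50 after the start) were held for 44 of the 52 members. The 4 members that followed the rest of the group most closely among cells, Ube2c, Cenpf, Aurka and Plk1, are shown first, and the paralogues Cks1b and Cks2, small subunits of cyclin-dependent kinases, are shown for contrast. Sequences run 5′ to 3′ on the strand of the gene, at chr2:164769679-164769978 (plus) for Ube2c, chr1:189688037-189688336 (minus) for Cenpf, chr2:172370521-172370820 (minus) for Aurka, chr7:122159185-122159484 (plus) for Plk1, chr3:89418242-89418541 (minus) for Cks1b and chr13:51644982-51645281 (plus) for Cks2. Capitals mark CHR letters (TTTGAA or TTCGAA) and CCAAT, each searched on both strands, so that TTCAAA and ATTGG are the reverse forms. A pair of CCAAT matches in Ube2c overlap.
Ube2c: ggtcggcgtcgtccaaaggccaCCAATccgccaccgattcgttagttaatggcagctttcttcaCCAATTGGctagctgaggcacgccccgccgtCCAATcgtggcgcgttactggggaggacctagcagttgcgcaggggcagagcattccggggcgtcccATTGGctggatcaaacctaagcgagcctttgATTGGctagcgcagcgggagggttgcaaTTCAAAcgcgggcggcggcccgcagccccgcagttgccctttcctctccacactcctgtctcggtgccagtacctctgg
Cenpf: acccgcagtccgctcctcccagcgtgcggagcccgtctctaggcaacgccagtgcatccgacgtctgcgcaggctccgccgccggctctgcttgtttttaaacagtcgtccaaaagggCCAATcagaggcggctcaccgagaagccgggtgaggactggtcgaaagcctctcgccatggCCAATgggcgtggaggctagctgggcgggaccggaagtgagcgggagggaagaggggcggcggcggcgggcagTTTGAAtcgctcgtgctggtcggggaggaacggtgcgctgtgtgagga
Aurka: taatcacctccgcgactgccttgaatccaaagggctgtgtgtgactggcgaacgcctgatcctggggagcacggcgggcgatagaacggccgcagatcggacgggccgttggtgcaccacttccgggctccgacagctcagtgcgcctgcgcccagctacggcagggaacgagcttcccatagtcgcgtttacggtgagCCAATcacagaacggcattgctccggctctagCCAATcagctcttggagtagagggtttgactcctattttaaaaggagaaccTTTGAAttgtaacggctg
Plk1: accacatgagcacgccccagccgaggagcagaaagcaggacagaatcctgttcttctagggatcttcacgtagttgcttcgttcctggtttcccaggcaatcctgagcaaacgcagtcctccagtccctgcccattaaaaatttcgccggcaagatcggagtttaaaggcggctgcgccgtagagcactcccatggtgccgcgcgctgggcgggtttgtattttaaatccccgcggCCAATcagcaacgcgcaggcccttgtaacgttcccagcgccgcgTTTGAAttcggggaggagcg
Cks1b: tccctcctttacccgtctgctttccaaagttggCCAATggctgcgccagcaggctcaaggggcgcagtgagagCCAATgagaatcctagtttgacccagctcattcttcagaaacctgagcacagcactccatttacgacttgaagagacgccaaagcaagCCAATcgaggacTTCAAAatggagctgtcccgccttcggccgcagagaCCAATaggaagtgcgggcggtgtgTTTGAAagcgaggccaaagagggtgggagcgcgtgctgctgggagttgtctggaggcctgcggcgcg
Cks2: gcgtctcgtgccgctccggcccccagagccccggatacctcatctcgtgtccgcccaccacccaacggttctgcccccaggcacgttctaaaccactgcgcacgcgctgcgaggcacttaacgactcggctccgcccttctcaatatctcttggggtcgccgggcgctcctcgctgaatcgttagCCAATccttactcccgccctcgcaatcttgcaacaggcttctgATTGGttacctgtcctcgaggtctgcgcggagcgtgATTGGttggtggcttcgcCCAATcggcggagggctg
Ube2c had 1 CHR match and 6 CCAAT matches, Cenpf and Aurka 1 and 2, and Plk1 1 and 1. Cks1b had 2 CHR and 4 CCAAT matches, and Cks2 had 4 CCAAT matches and no CHR letters in the window. Among the 44 members, 37 (84.1%) held a CHR match, 36 (81.8%) a CCAAT match and 33 (75%) both, against 19.2%, 37.4% and 7.5% of the 32851 promoters in the table. At least 2 CCAAT matches stood in 23 members (52.3%) and in 11.7% of all promoters. Top2a, which untangles sister chromatids, held the most CHR matches of the members, 4, with 6 CCAAT matches. Nuf2, Birc5, Nusap1 and Tacc3 held neither motif in the window. A match is a string of letters, not a measured binding site.

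The libraries held 583302 to 34984056 counts of mouse genes, and the median cell 16187 to 439869, with 10184 in the shallowest cell. The cell type was checked against markers, which do not test which line the cells were. All 14 naive stem cell genes were seen in all 12 libraries (summed level 4362 to 8791 CPM, the share of a library's counts scaled to 1e6). The 10 fibroblast genes summed to 22.1 to 167 CPM, most of it from Fbln1, with Col6a1 and Postn at 0. The 10 endoderm and trophoblast genes summed to 13.5 to 133 CPM. Replicates A and B shared 0 cell barcodes in Drop-seq, 21 in SCRB-seq, 19 in MARS-seq and 26 in CEL-seq2. A barcode sequence found in both libraries does not show that a cell was shared. In Drop-seq, 29 of 42 barcodes in A and 12 of 34 in B lay 1 base from another barcode, and joining these leaves 25 and 28 cells.

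The members took 0.473% to 1.33% of all counts. Replicates A and B summed to 9028 and 6607 CPM with Drop-seq, 7126 and 6998 with SCRB-seq, 4732 and 5570 with MARS-seq, and 7345 and 8336 with CEL-seq2. Smart-seq2 gave 10825 and 10407 CPM and Smart-seq / C1 gave 12134 and 13257. All 4 full-length libraries lay above all 8 tag libraries, and the MARS-seq pair lay lowest. Full-length sums count reads and tag sums count UMIs, so they are not the same measure. Sums of 55 genes of G1/S and replication, listed for comparison, split the same way. They were 12805 to 14708 CPM in full-length and 6035 to 9198 CPM in tag libraries. In sums over a library, fewer cells in G2 or mitosis and less of these transcripts per cell cannot be told apart.

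Levels of single genes are CPM on library sizes scaled by TMM, a normalization of edgeR. Different genes are compared here only within the UMI libraries or per kilobase of the longest coding transcript in the read libraries. By UMIs, Top2a was the most abundant member at 807 ± 396 CPM (SD, n = 8 tag libraries), followed by Ube2c at 328 ± 132, the condensin subunits Smc2 at 315 ± 195 and Smc4 at 313 ± 226, and Birc5 (survivin, of the chromosomal passenger complex) at 293 ± 58.6. Those after Top2a lay within each other's spread. The phosphatase gene Cdc25b was lowest at 9.47 ± 4.49 CPM, below Cdc25c at 20.9 ± 13.8. By reads per kilobase the order led with Cks1b at 306 ± 73.7 CPM per kilobase (SD, n = 4 full-length libraries), Lbr at 188 ± 165, Cdc20 at 184 ± 126, Cdca8 at 160 ± 24.5 and Top2a at 146 ± 95.5. Cdc25b was again last at 7.06 ± 0.611. Across the 52 members the orders on these scales had a Spearman correlation of 0.573, a description over genes that share the same libraries.

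**Figure D1:**
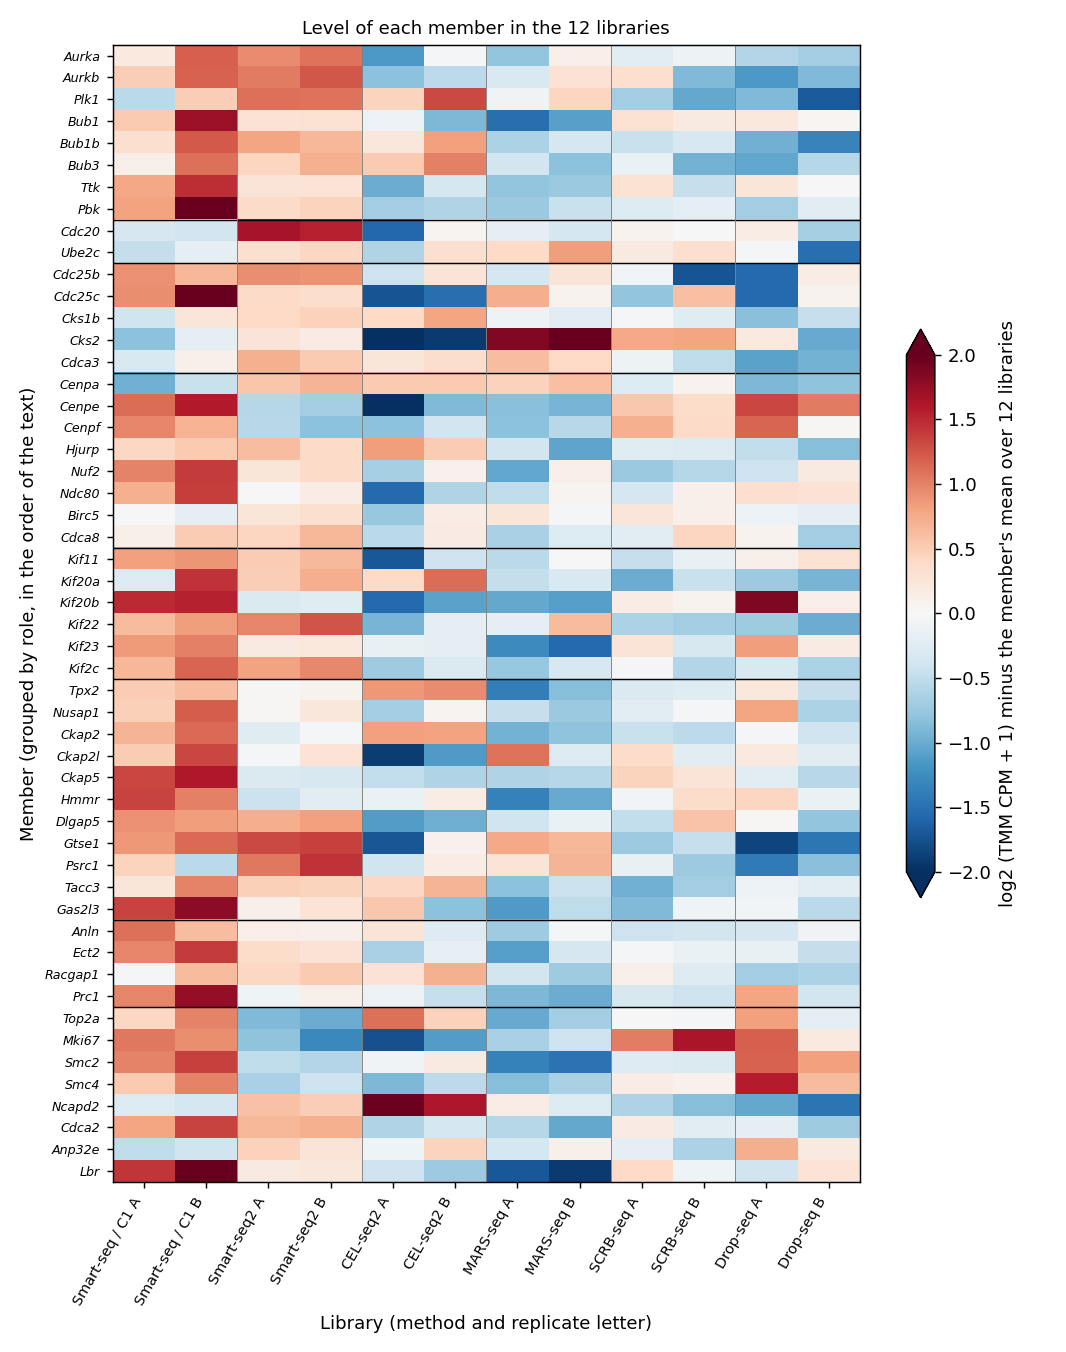
Level of the 52 members (rows, grouped by role) in the 12 libraries (columns), as log2 (TMM-scaled CPM + 1) minus the member's mean over the libraries, with colours ending at 2 above and below. Most rows are red in the 4 full-length columns on the left, Cks2 stands out as blue in CEL-seq2 and red in MARS-seq, and Ncapd2 is reddest in CEL-seq2.

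Methods were compared on counts summed per library with edgeR's quasi-likelihood test and Benjamini-Hochberg adjustment over 14293 genes, with a call at an adjusted p below 0.05. All 52 members passed its filter on low counts. Of them, 46 differed between methods in the joint test, in which 65.4% of all genes tested were called. The 6 that did not pass were Ube2c (adjusted p = 0.0973), Cdc25b (0.167), Birc5 (0.589), Cdca8 (0.136), Nusap1 (0.055) and Anp32e (0.0697).

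The first comparison sets libraries read along the transcript against those read at the 3′ end. These also differ in counting reads or UMIs and in depth per cell, and the parts of each cannot be told apart. With full-length libraries 38 of 52 members were higher than with tag libraries and 0 were lower, while 25.6% of all genes tested were higher and 23.2% lower. The median log2 fold was 0.832 over the members and 0.213 over all genes tested. At an unadjusted p below 0.05, edgeR gave 0 members lower. DESeq2, at an adjusted p below 0.05, called 33 higher and 0 lower. With the size factors of DESeq2 in edgeR (RLE) the median of all genes shifted by -0.141, the members' median was 0.688 against 0.072, and 32 were called higher. Under either scaling 42 of 52 members had a fold above the median of all genes.

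The mitotic kinases and spindle checkpoint genes were higher in full-length libraries in 8 of 8 cases. Aurkb, the kinase of the chromosomal passenger complex, had 119 and 138 CPM in Smart-seq2 and 81.7 and 132 in Smart-seq / C1, against a lowest of 25.3, a median of 35.9 and a highest of 73.0 in the tag libraries. No full-length value overlapped a tag value. The log2 fold was 1.48 (SE 0.255, edgeR adjusted p = 0.00011). Aurka, which matures centrosomes and spindle poles, was 233 ± 63.8 CPM (SD, n = 4) against 95.9 ± 28.4 (n = 8), a log2 fold of 1.28 (SE 0.244, edgeR adjusted p = 0.000291). Pbk, a mitotic protein kinase, had a log2 fold of 1.55 (SE 0.262), although 13.8% of its 31-base words occur in another gene and its reads are uncertain. The checkpoint genes Bub1, Bub1b, Bub3 and Ttk had log2 folds of 1.12, 1.15, 0.90 and 1.05. Plk1, which drives mitotic entry, had the smallest of the 8, 0.81 (SE 0.241). Smart-seq2 gave 239 and 238 CPM of it and Smart-seq / C1 76.0 and 157, while the tag libraries had 59.5 and 34.0 with Drop-seq, 68.5 and 54.4 with SCRB-seq, 106 and 149.5 with MARS-seq and 152 and 279 with CEL-seq2, so that CEL-seq2 and MARS-seq overlapped the full-length range while SCRB-seq and Drop-seq lay below it.

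Of the partners of the anaphase-promoting complex, Cdc20, its activator, was higher in full-length libraries (log2 fold 0.86, SE 0.243, edgeR adjusted p = 0.00704). That average covers unlike methods: Cdc20 had 136 and 133 CPM in Smart-seq / C1, inside the tag range of 57.4 to 192, but 543 and 506 in Smart-seq2. Of the 31-base words of Cdc20, 27.4% occur in another gene. Ube2c, the enzyme that hands ubiquitin to the complex, was 313 ± 89.1 CPM (SD, n = 4) against 328 ± 132 (n = 8), a log2 fold of -0.05 (SE 0.246). Its exons overlap a gene on the opposite strand over 22.8% of their length, and the strand setting of the counting is not given in the sources used here. The same holds for Kif20a (29.3%), Cdc25c (12.7%) and Prc1 (11.1%), and Plk1 (15.2%), Ndc80 (17.2%), Cks1b (23.7%) and Racgap1 (11.4%) share 31-base words with other genes, so their values are uncertain to that extent.

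Among regulators of Cdk1, the phosphatase genes Cdc25b (log2 fold 1.24, SE 0.422) and Cdc25c (1.61, SE 0.36) passed, while Cks1b, Cks2 and Cdca3, an adaptor in the breakdown of Wee1, did not. Among the kinetochore and centromere genes 4 of 8 passed: the outer kinetochore genes Nuf2 (1.11) and Ndc80 (0.83), the Cenpa chaperone gene Hjurp (0.73) and the passenger complex gene Cdca8 (0.61). Cenpa, the centromeric histone, had -0.06 (SE 0.186), Cenpf 0.08 (SE 0.217), Birc5 0.11 (SE 0.195) and the kinetochore motor Cenpe 0.52 (SE 0.215, edgeR adjusted p = 0.0548).

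All 6 kinesin genes passed, from 0.83 for Kif23, of the central spindle, through Kif20b (0.88), Kif20a (1.003) and Kif11 (1.04), which slides spindle microtubules apart, to 1.35 for the microtubule depolymerase Kif2c and 1.36 for the chromosome motor Kif22. The spindle microtubule genes passed in 10 of 11 cases. Gtse1, which acts on microtubule stability, led with 282 and 290.1 CPM in Smart-seq2 and 205 and 247 in Smart-seq / C1, against a lowest of 30.9, a median of 74.1 and a highest of 192 in the tag libraries. These ranges did not overlap, and the log2 fold was 1.70 (SE 0.247, edgeR adjusted p = 1.73e-05). The others that passed were Gas2l3 (1.29), Dlgap5 (1.21), Psrc1 (0.94), Ckap5 (0.88), Tacc3 (0.83), Ckap2l (0.76), Nusap1 (0.69), Hmmr (0.64) and Ckap2 (0.59). Of 18 alternative settings, Ckap2l and Nusap1 each lost the call in 4 and Ckap2 in 1. Among the other members that passed, Cdca8 and Smc2 each lost it in 3 and Racgap1 in 2. Tpx2, the activator of Aurora A, had 0.44 (SE 0.19, edgeR adjusted p = 0.065).

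The cytokinesis genes passed in 4 of 4 cases: Ect2, which switches on RhoA at the furrow (1.13), Prc1, the microtubule bundler of the midzone (1.04), the contractile ring gene Anln (0.73) and Racgap1 (0.59). Of the genes for chromosome structure and the nuclear envelope only 3 of 8 passed. Lbr, the lamin B receptor, had the largest fold of all members, 1.76 (SE 0.225, edgeR adjusted p = 3.68e-06), with 260.4 and 268 CPM in Smart-seq2, 619.8 and 1494 in Smart-seq / C1 and 60.04 to 303 in the tag libraries. Only Smart-seq / C1 lay above the tag range. Cdca2, which brings a phosphatase to chromatin in anaphase, had 1.33 and Smc2 0.47. Top2a had -0.19 (SE 0.218), Mki67, the Ki-67 protein that coats mitotic chromosomes, -0.08 (SE 0.233), Smc4 0.16 (SE 0.204), Ncapd2 0.17 (SE 0.191) and the histone chaperone gene Anp32e -0.10 (SE 0.202). Of the 59 other mitosis genes, chosen as further cyclins, kinetochore, spindle and condensin genes, 30 were higher and 5 lower, and of 55 genes of G1/S and replication 38 were higher and 4 lower. Cdk1 itself had a log2 fold of 0.68 (SE 0.22, edgeR adjusted p = 0.0155) and Ccnb1, its cyclin, 0.37 (SE 0.254, adjusted p = 0.241).

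**Figure D2:**
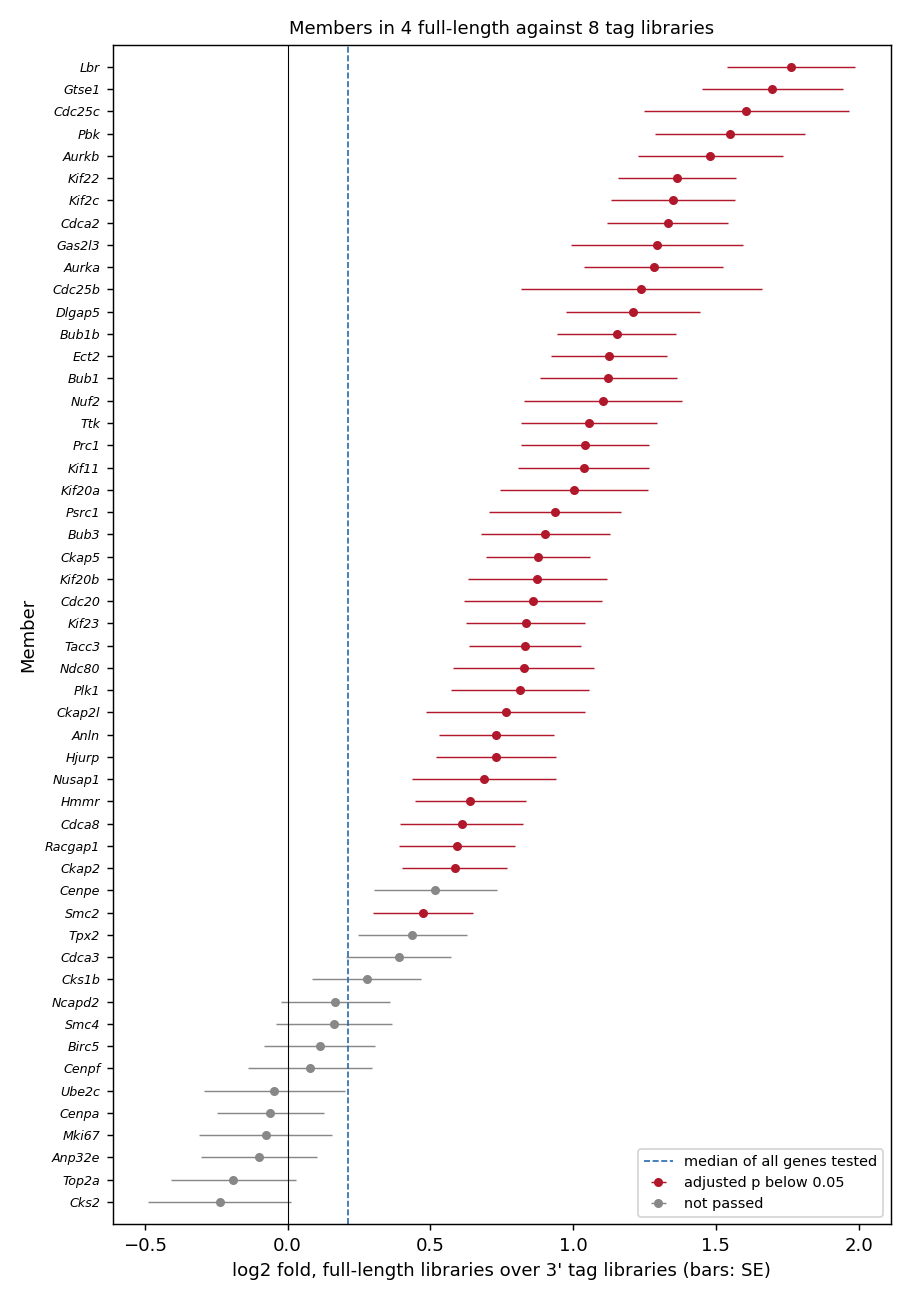
Log2 fold of full-length over tag libraries for each member (points, with SE as bars), red where edgeR's adjusted p was below 0.05, with a dashed line at the median of all genes tested, 0.213. The 38 red points all lie right of 0, and Lbr, Gtse1 and Cdc25c lie farthest right.

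Transcript length moved with the same comparison over all genes tested, and its part in the members' folds was not tested. Over all genes tested the fold had a Spearman correlation of 0.436 with transcript length, and over the 52 members one of -0.145. Among transcripts over 2000 and up to 4000 bases, 22 of 25 members were higher in full-length libraries against 35.3% of all genes of that length. Between 1000 and 2000 bases it was 7 of 9 members against 25.7%, and between 4000 and 8000 bases 9 of 14 against 30.9%. The 2 members up to 1000 bases, Cks1b and Cks2, and the 2 over 8000 bases, Cenpf and Mki67, did not pass. Of all genes up to 1000 bases 2.51% were higher and 67.1% lower, and of those over 8000 bases 26.1% were higher.

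The full-length methods were then compared with each other. In Smart-seq / C1, 12 members were higher than in Smart-seq2 and 3 were lower, where 8.75% and 6.81% of all genes tested were. Mki67 had 54.5 and 38.9 CPM in Smart-seq2 and 201 and 185 in Smart-seq / C1, a log2 fold of 2.04 (SE 0.385, edgeR adjusted p = 0.00166). Cenpe had 293 and 407 against 90.4 and 84.0 (log2 fold 2.01, SE 0.364). Top2a had 932 and 1394 against 377 and 351 (log2 fold 1.67, SE 0.361). In each of these genes both Smart-seq / C1 libraries lay above both Smart-seq2 libraries. Lbr (2.00), Kif20b (1.79), Ckap5 (1.79), Smc2 (1.75), Cenpf (1.53), Hmmr (1.51), Prc1 (1.42), Smc4 (1.31) and Ckap2 (1.07) were also higher. Cdc20 (-1.97), Cenpa (-1.31) and Psrc1 (-1.23) were lower. The split rests on few libraries: without Smart-seq2 A, 5 were higher and 1 lower, without Smart-seq2 B 4 and 1, without CEL-seq2 A 7 were lower, and limma on means over cells called 3 higher.

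Tag methods that amplify by in vitro transcription were set against those that use PCR. With in vitro transcription 8 members were higher and 10 lower than with PCR, where 9.14% and 12.9% of all genes tested were. Mki67 was 51.1 ± 19.3 CPM (SD, n = 4 libraries) with in vitro transcription and 207 ± 78.1 (n = 4) with PCR, a log2 fold of -2.04 (SE 0.287, edgeR adjusted p = 0.000101). Its values were 27.8, 44.0, 60.9 and 71.8 against 196, 299.6, 221 and 110.1 CPM, with no overlap. Cenpe (-1.95), Kif20b (-1.87), Smc4 (-1.37), Lbr (-1.28), Cenpf (-1.27), Kif23 (-1.09), Bub1 (-1.08), Smc2 (-1.05) and Hmmr (-0.76) were lower too. Ncapd2, a condensin subunit, went the other way with a log2 fold of 1.86 (SE 0.236, edgeR adjusted p = 4.06e-05): CEL-seq2 held 513 and 403 CPM and MARS-seq 145 and 107, against 63.9 and 47.0 with Drop-seq and 85.0 and 72.1 with SCRB-seq. Plk1 (1.62), Gtse1 (1.23), Cdca3 (1.06), Cenpa (1.004), Kif20a (0.98), Psrc1 (0.97) and Bub1b (0.80) were also higher. Without CEL-seq2 B, SCRB-seq A or Drop-seq A 4 members were higher, and leaving out replicate B of Drop-seq or SCRB-seq, or either MARS-seq library, gave 5.

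The last 2 comparisons share no library. Of the 12 members higher in Smart-seq / C1 than in Smart-seq2, 8 (66.7%) were lower with in vitro transcription than with PCR, which is 80.0% of the 10 that were: Cenpe, Cenpf, Hmmr, Kif20b, Lbr, Mki67, Smc2 and Smc4. Of the 3 that were lower in Smart-seq / C1, Cenpa and Psrc1 were among the 8 higher with in vitro transcription (66.7% and 25%). Over all genes tested, 324 of 1250 higher in Smart-seq / C1 were lower with in vitro transcription (25.9%, which is 17.6% of the 1837 that were), and 212 of 973 lower in Smart-seq / C1 were higher with it (21.8%, which is 16.2% of 1307).

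Between the in vitro transcription methods, 13 members were higher and 4 lower in CEL-seq2 than in MARS-seq, where 11% and 12.4% of all genes tested were. Cks2 had 10.1 and 12.5 CPM in CEL-seq2 and 183 and 217 in MARS-seq, a log2 fold of -4.12 (SE 0.472, edgeR adjusted p = 7.41e-06). In the other 8 libraries it lay between 24.3 and 86.5 CPM, between those pairs. Cks2 shares 31.7% of its 31-base words with another gene, and the part of such shared sequence in this difference was not tested. Cks1b, its paralogue, had 295 and 386 CPM in CEL-seq2 and 210 and 191 in MARS-seq and did not pass. Cdc25c (-2.15), Ckap2l (-2.02) and Gtse1 (-1.24) were lower as well. Tpx2 had 356 and 375 CPM in CEL-seq2 and 73.4 and 107 in MARS-seq (log2 fold 2.01, SE 0.335, edgeR adjusted p = 0.000335), and Ncapd2 (1.86), Ckap2 (1.70), Top2a (1.66), Smc2 (1.48), Hjurp (1.38), Bub3 (1.38), Kif23 (1.28), Lbr (1.26), Hmmr (1.19), Tacc3 (1.18), Racgap1 (1.06) and Bub1b (1.03) were higher. Without CEL-seq2 B 6 members were higher, and without MARS-seq A or B 5. Lower members numbered 1 without replicate A of either method and 2 when MARS-seq B was dropped, and limma on means over cells gave 25 higher and 1 lower.

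Between the PCR tag methods, only Smc2 passed: 670 and 525 CPM in Drop-seq against 247 and 242 in SCRB-seq, a log2 fold of 1.29 (SE 0.298, edgeR adjusted p = 0.0351). Over all genes tested, 1.03% were higher and 0.483% lower in Drop-seq. At an unadjusted p below 0.05 edgeR gave 4 members higher and 5 lower. DESeq2, at an adjusted p below 0.05, called 4 higher and 0 lower. Without any 1 of the 8 libraries of Drop-seq, SCRB-seq, MARS-seq and Smart-seq2, the call on Smc2 was lost and 0 members were higher, and limma on means over cells called 22 lower. The other 51 members are not shown to be alike in these methods.

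How often a member was seen in a cell was compared after each cell was thinned to 10000 counts. Top2a was seen in 96.2% of cells on average over the 12 libraries (range 86.7% to 100%), Birc5 in 90.2% (69.6% to 96.9%), Ube2c in 85.3% (58.1% to 97.9%) and Cks1b in 85.1%. Cdc25b was seen in 10.8% (1.67% to 21.2%), Cdc25c in 19.9% and Gas2l3 in 24.2%. The median cell held a count for 29 and 27 of the 52 members with Drop-seq, 33 and 31 with SCRB-seq, 22 and 25 with MARS-seq, 26.5 and 31 with CEL-seq2, 36 and 37 with Smart-seq2 and 36 and 35 with Smart-seq / C1. Without thinning, Top2a was seen in 99.4% of cells and Cdc25b in 34.0%. These shares count cells with a count, not cells that express the gene.

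The sum of the members in each cell shows how unevenly the programme was spread over cells. Per 10000 counts, the median cell held 85 and 65 counts of members with Drop-seq, 71 and 69 with SCRB-seq, 44 and 54 with MARS-seq, 68 and 72 with CEL-seq2, 100 and 102 with Smart-seq2 and 119 and 127 with Smart-seq / C1. By this measure SCRB-seq cells were the most alike. Their highest sum was 1.37 and 1.48 times the median, the coefficient of variation was 16.9% and 15.5%, and 0 of 39 and 0 of 45 cells lay above 1.5 times the median, which allows shares of up to 7.69% and 6.67% by counting error alone. In the other libraries the coefficient of variation ran from 22.7% in Smart-seq / C1 A to 53.2% in CEL-seq2 A, and 2 to 12 cells lay above 1.5 times the median. This coefficient includes counting noise, which weighs more where sums are smaller. By variance over mean SCRB-seq was again lowest, at 1.96 and 1.65, and CEL-seq2 A highest, at 20.95. Smart-seq / C1 A had 6.28, above MARS-seq A at 3.68. One CEL-seq2 A cell held 232 counts of members, 3.41 times the median of its library, while the next cell held 138. Its total of 31145 counts was below the library median of 35652. In it 41 of 52 members lay above their library median, as did 41 in the highest cell of Smart-seq2 A. A cell picked for the highest sum has many members above their medians by that choice. With joined barcodes the coefficient of variation was 26.9% in Drop-seq A and 26.6% in B, against 27.8% and 26.7% for the barcodes as deposited. Read counts in the full-length libraries repeat molecules, so their spread and that of UMIs are not on the same footing.

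**Figure D3:**
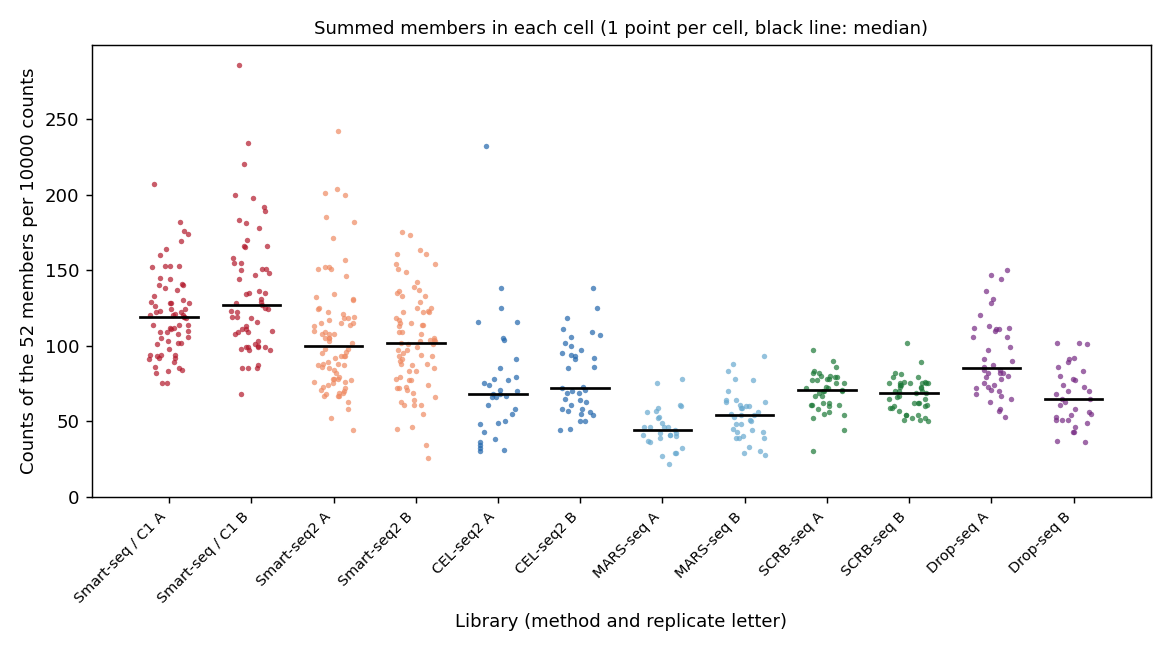
Counts of the 52 members per 10000 counts in each cell (points) of the 12 libraries, with black lines at the medians. SCRB-seq cells lie in a narrow band with medians of 71 and 69, and the highest cell of CEL-seq2 A stands alone at 232.

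Within each library, every member was correlated among cells with the sum of the other members (Spearman, cells thinned to 10000 counts, mean over 20 draws), and the 12 values were averaged. This is a description: cells of a library are not replicates, they share depth, and no p is given. A mean of at least 0.2 thinned counts in every library was reached by 45 members and by 2838 genes in all. The 45 means were all above 0, with a median of 0.180, while 59.5% of all those genes were above 0, with a median of 0.0088. Means of at least 0.2 were found in 16 of 45 members and 0.916% of all genes, and values above 0 in 12 of 12 libraries in 15 of 45 and 1.02%.

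Ube2c led with a mean of 0.395. Smart-seq2 gave 0.583 and 0.607 for it and Smart-seq / C1 0.321 and 0.462. The tag libraries gave 0.519 and 0.236 with Drop-seq, 0.196 and 0.066 with SCRB-seq, 0.322 and 0.385 with MARS-seq and 0.5 and 0.546 with CEL-seq2. All 12 were above 0, and the SCRB-seq pair was lowest. Cenpf (0.346), Aurka (0.322), Plk1 (0.306), Cenpa (0.290), Top2a (0.288), Prc1 (0.283), Hmmr (0.281), Tpx2 (0.280) and Nusap1 (0.273) came next. Plk1 ranged from -0.055 in Drop-seq B to 0.646 in Smart-seq2 A. At the low end were Lbr (0.027), Pbk (0.053) and Cks1b (0.060), and also Cdc25c (0.054), which with Cdc25b, Cks2, Nuf2, Ndc80, Ckap2l and Gas2l3 lay below the level limit. By role, the median of the means ran from 0.111 for the Cdk1 regulators to 0.188 for cytokinesis and 0.324 for Cdc20 with Ube2c. These medians include the members below the level limit. The 0.111 was the value of Cdc25b, which lay below that limit, as did Cdc25c and Cks2 of the same role. The Cdk1 regulators above the limit were Cks1b (0.060) and Cdca3 (0.201). The 4 promoters at the head of the ranking thus held both motifs, as did that of Cks1b near its foot. Over the members with both motifs the median of the means was 0.184 (30 tested), and over the other members with a promoter 0.142 (8 tested).

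The members' correlations differed between libraries, which also differ in cell number (29 to 80). Median counts of members per thinned cell ran from 44 in MARS-seq A to 127 in Smart-seq / C1 B. The part of these differences in the correlations was not tested. The median correlation of the 45 members was 0.351 in CEL-seq2 A, 0.295 and 0.281 in Smart-seq2, 0.189 in both CEL-seq2 B and Smart-seq / C1 B, 0.183 in MARS-seq B, 0.113 to 0.128 in both Drop-seq libraries and the A replicates of MARS-seq and Smart-seq / C1, and 0.076 and 0.052 in SCRB-seq. No member exceeded 0.3 in either SCRB-seq library, against 4 to 31 of 45 in the others. Of all genes tested 0.14% and 0.0% exceeded it in SCRB-seq, and 0.25% to 2.57% in the others. Single pairs of members were weakly correlated, with the highest means for Ube2c with Top2a (0.244), Cenpf with Top2a (0.234) and Ube2c with Cenpa (0.232).

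**Figure D4:**
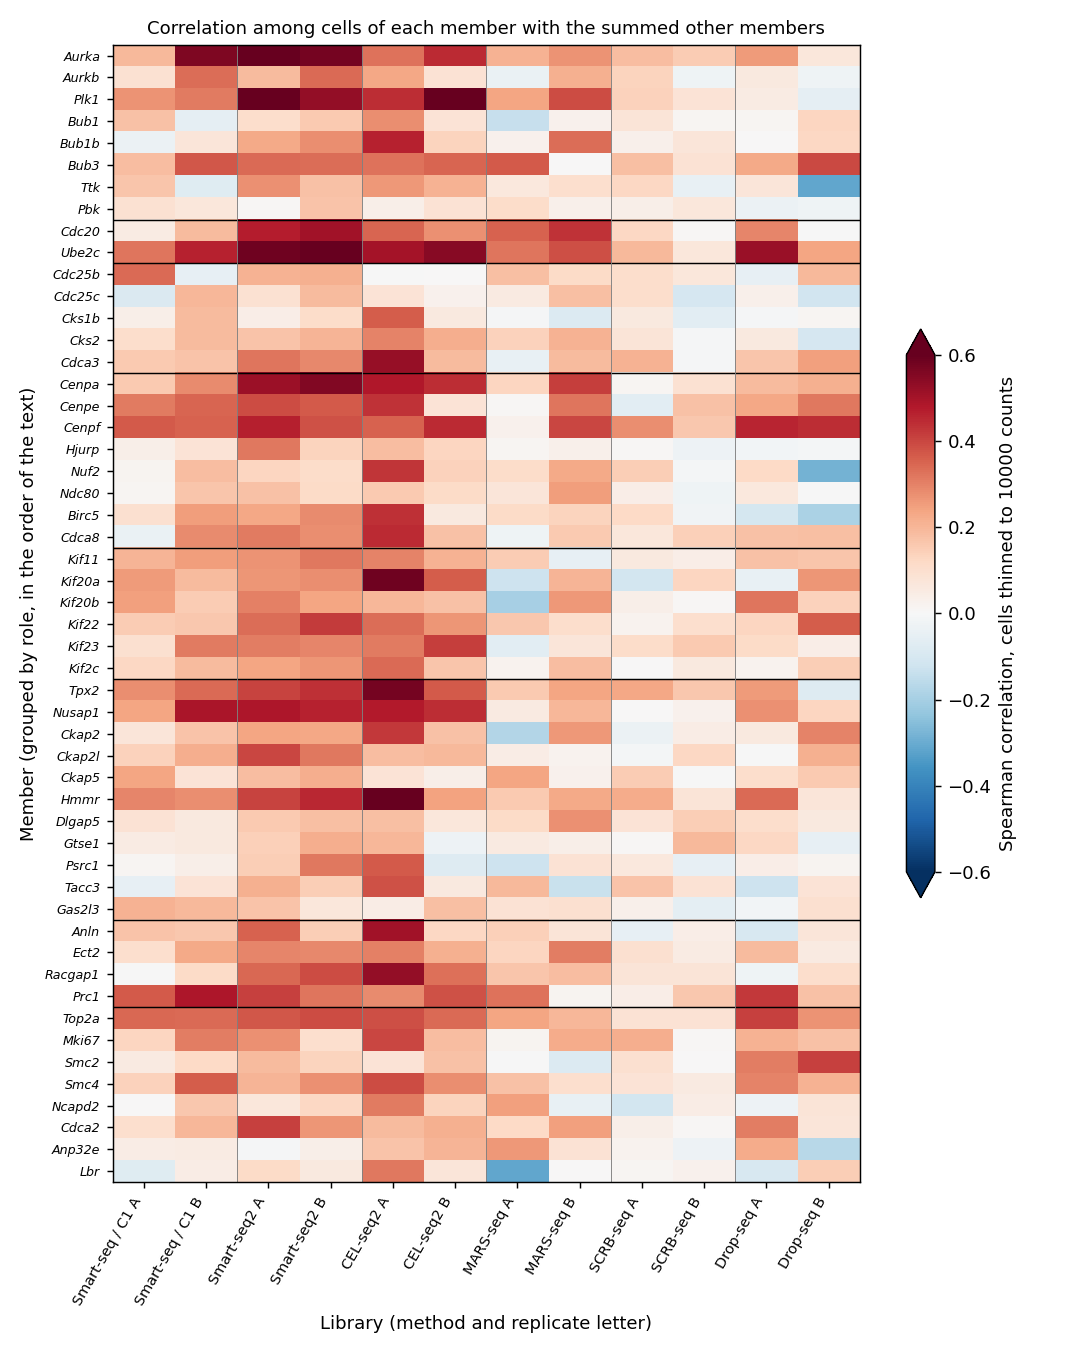
Spearman correlation among cells of each member (rows, grouped by role) with the summed other members in the 12 libraries (columns), with colours ending at 0.6. Ube2c, Cenpf, Aurka and Top2a are red in most columns, and the SCRB-seq columns are the palest.

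Genes outside the set that followed the summed members closely included Arl6ip1 (mean 0.376, above 0 in 12 of 12 libraries), Cdk1 (0.312, 12 of 12), Ccnb1 (0.278, 10 of 12), Ccnf (0.253), the tubulin gene Tubb4b (0.237), Mtf2 (0.224), Jpt1 (0.221), the long noncoding RNA Malat1 (0.216), Sgo2a (0.214), Incenp (0.197), Calm2 (0.196), Tuba1c (0.192), Fzr1 (0.175) and Aspm (0.167). Most of these stood in the list of other mitosis genes. Lowest were Chaf1b (-0.126), Rpl41 (-0.124), Pcna-ps2 (-0.124), Pcna (-0.116) and Mcm4 (-0.110). Chaf1b, Pcna and Mcm4 act in DNA replication. Over the 36 other mitosis genes at that level the median was 0.106, and over 45 genes of G1/S and replication -0.0067. The summed members and the summed G1/S genes were correlated between -0.364 in Drop-seq A and 0.364 in CEL-seq2 A, so the sign was not shared by all libraries.

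Whether a member varied among cells more than other genes of its level was tested with limma on the residual of log2 squared coefficient of variation above its trend on the mean, with 1 mean per method and the average of the 6 methods against 0. Of 45 members tested, 11 were more variable and 0 less variable, where 5.99% and 10.3% of all 2840 genes tested were. At an unadjusted p below 0.05 it was 23 and 1. The median residual was 0.128 over the members and -0.0058 over all genes tested. Top2a had the largest value of the members, 0.64 (SE 0.0749, limma adjusted p = 0.000157), above 0 in 11 of 12 libraries, with -0.01 in SCRB-seq A and 1.54 in CEL-seq2 A at the ends. Cenpf had 0.63 (SE 0.0539, limma adjusted p = 1.21e-05), from 0.32 to 1.20 and above 0 in 12 of 12. Cenpe (0.45), Ube2c (0.43), Plk1 (0.42), Prc1 (0.36), Cenpa (0.29), Smc4 (0.29), Psrc1 (0.28), Aurka (0.26) and Tpx2 (0.21) also passed. Of the 12 libraries, residuals were above 0 in 12 for Smc4, 11 for Cenpe and 10 for Plk1, Cenpa, Aurka and Tpx2. It was 9 libraries for Ube2c and Prc1, and only 7 for Psrc1. Cks1b was lowest at -0.24 (SE 0.0784, limma adjusted p = 0.0525).

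The residuals of the members differed between libraries. Their median was 0.354 in CEL-seq2 A, 0.223 and 0.192 in Smart-seq2, 0.176 and 0.280 in Smart-seq / C1, 0.159 and 0.0788 in Drop-seq and 0.032 in CEL-seq2 B. It was 0.0116 and -0.0351 in SCRB-seq and -0.0599 and -0.030 in MARS-seq. Left out one at a time, the libraries gave between 8 members more variable (without SCRB-seq A) and 15 (without CEL-seq2 B). Cenpf, Top2a, Cenpe, Ube2c, Plk1, Smc4, Psrc1 and Aurka passed under every alternative in which they could be tested, whereas Cenpa lost its call in 8 of 17, Tpx2 in 5 of 17 and Prc1 in 3 of 16. The test averages over methods, so a call does not mean higher variation in each method. Of the 36 other mitosis genes tested 5 were more variable and 2 less, among them Pttg1, the securin gene (0.54, SE 0.117), and Ran (-0.41, SE 0.0567).

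**Figure D5:**
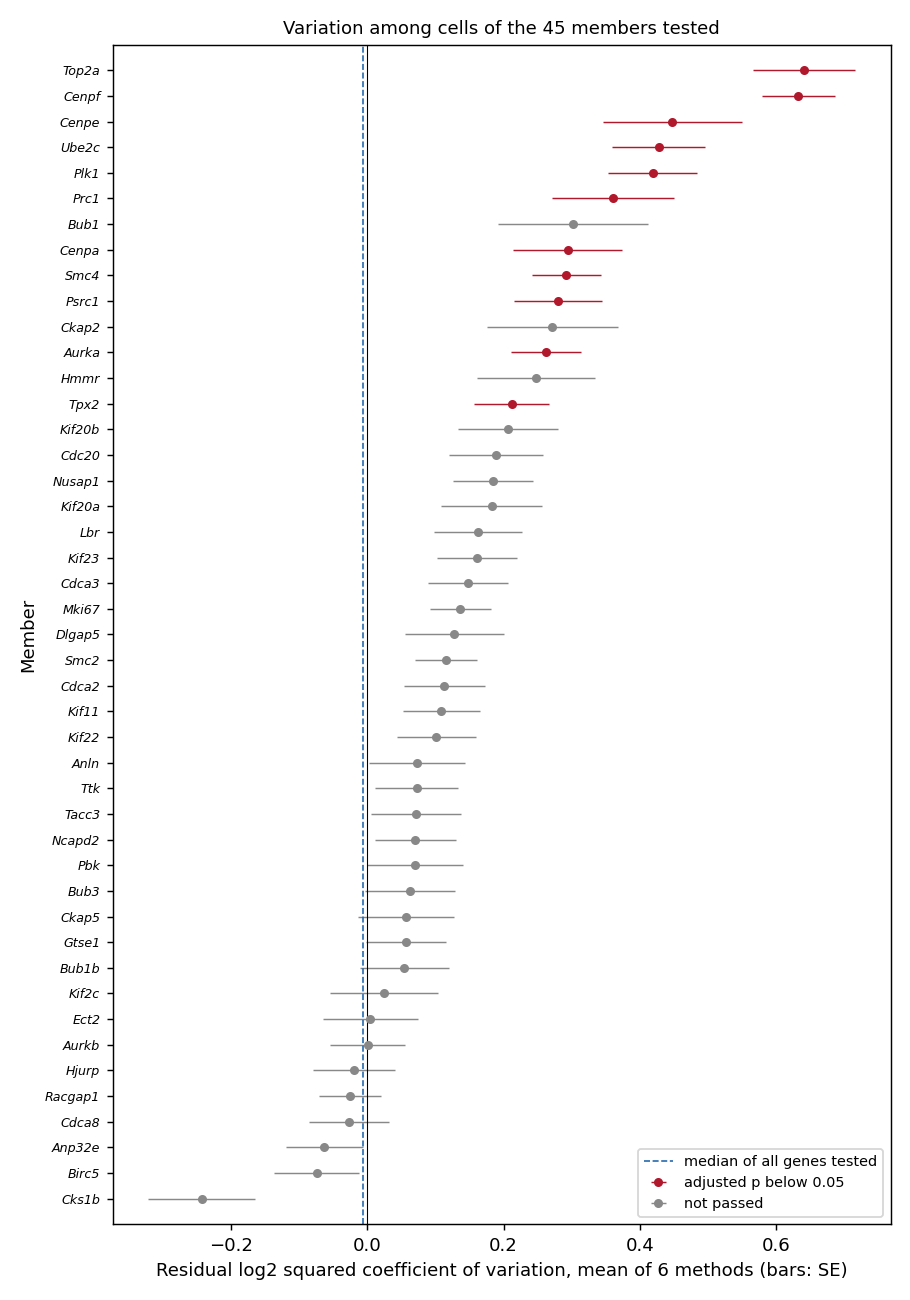
Residual log2 squared coefficient of variation of the 45 members tested, averaged over 6 methods (points, with SE as bars), red where limma's adjusted p was below 0.05. Top2a at 0.64 and Cenpf at 0.63 lie farthest right and Cks1b at -0.24 farthest left.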

How the data were processed

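For the tag methods the authors deposited whole-number UMI counts per gene and cell, and for the Smart-seq methods whole-number counts without UMIs, taken here as read counts. Per the submitters' processing notes, bcl2fastq, STAR 2.4.0 and mm10 were used. How reads were assigned to genes, with which annotation and strand setting, is not given in the sources used here. Members, lists and tests were chosen with earlier results of these data known. All cells were kept, no doublet caller was run, and 92 spike-ins were left out. Counts were summed per library and fitted with edgeR 4.0.16 in R 4.3.3 (filterByExpr by method, TMM, robust quasi-likelihood, 1 mean per method, 6 residual degrees of freedom). DESeq2 1.42.0 and limma 3.58.1 gave alternatives. For values among cells, each cell was thinned to 10000 counts. Correlations were averaged over 20 draws, a number chosen after seeing the data (SD over draws of a member's mean correlation up to 0.047). Variation was tested with limma on residuals above a loess trend (span 0.5). The edgeR, correlation and variation scripts were tried on simulated data. Promoters came from the RefSeq entry nearest the GENCODE M21 start. All members could be named, and of other genes the 15 highest and 5 lowest mean correlations and those of the lists. One of these genes is not reported here.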

Additional observations from a re-analysis of the deposited data

How the results depend on the processing

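Among 252 values of counts and medians under alternative settings, 216 stayed within a set limit. Those 216 include counts of 0 that stayed 0, and settings that left out a library not in the comparison. For counts the limit was 1.5 times the reported count. For medians it was the SD of the medians of all 12 libraries, which includes differences between methods. Among 1782 settings of single called members, 184 lost the call and 0 reversed. Limma on mean log2 CPM over cells gave 3 members higher in Smart-seq / C1 than in Smart-seq2, 25 higher and 1 lower in CEL-seq2 than in MARS-seq, and 22 lower in Drop-seq than in SCRB-seq, where DESeq2 gave 4 higher. With 1 library left out at a time, the counts ran from 45 to 49 in the joint test, 35 to 43 higher with full-length libraries, 4 to 17 higher and 1 to 7 lower in Smart-seq / C1, 5 to 14 higher and 1 to 4 lower in CEL-seq2, 0 to 1 higher in Drop-seq, 4 to 11 higher and 8 to 11 lower with in vitro transcription, and 8 to 15 more variable and 0 to 1 less variable. A lone library was then assumed to vary like the others. The median over all 52 members of the mean correlation was 0.150, and 0.270 on log2 CPM without thinning. The median share of cells with a count was 60.9% at 10000 counts, 42.0% at 5000 and 87.1% unthinned. Replicate letters did not pair the libraries: over 15 pairs of methods the deviations of same-lettered libraries were correlated between -0.0839 and 0.0781. With a replicate block the counts were 46 in the joint test, 38 and 0 with full-length libraries, 12 and 3 in Smart-seq / C1, 13 and 4 in CEL-seq2, 1 and 0 in Drop-seq, 8 and 10 with in vitro transcription, and 12 and 0 for variation. The cause of these shifts was not tested.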
